A study of Mus musculus with 33 samples.

Results

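DP-seq libraries made from 100 pg or 50 pg of mRNA were set against libraries made from 10 ng of mRNA, to see which genes were gained or lost when the input was cut. The members are 6 of the 33 libraries of the series: 2 at 10 ng, 2 at 100 pg and 2 at 50 pg, taken by their labels from a dilution series of 12 libraries. All were mouse embryoid bodies, aggregates of differentiating embryonic stem cells kept without serum, dispersed on day 2, given activin A at 3 ng/mL and collected on day 4. Strain, cell line and genotype are not given in the labels used here. By the labels every library of the comparison has the same treatment and stage, and only the mRNA amount differs; whether all were drawn from 1 pool of mRNA was not stated. Each pair is labelled as technical replicates, so n = 2 is 1 sample measured 2 times and the p-values measure technical spread alone.

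DP-seq (designed primer-based sequencing) amplifies cDNA with a defined set of heptamer primers, so each transcript is read through a limited number of amplicons rather than along its whole length. With little mRNA, rare transcripts are present in few copies, and each step before sequencing samples from those copies. Activin A acts like Nodal, the TGF-β family ligand that patterns the early embryo: type II and type I receptors phosphorylate Smad2 and Smad3, which join Smad4 and factors such as Foxh1 at target genes of the primitive streak, mesoderm and endoderm. Tln1 encodes talin, which couples integrins to actin at focal adhesions, and Dicer1 encodes the nuclease that cuts microRNA precursors.

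The libraries held 3110866 and 10324740 counts at 10 ng, 6052521 and 6050089 at 100 pg, and 5777440 and 6721838 at 50 pg. After every library was thinned at random to 3110866 counts, 13125 and 13113 genes had a count at 10 ng, 12000 and 11772 at 100 pg, and 11268 and 11146 at 50 pg. The order was the same for genes with at least 10 thinned counts, from 8969 in the first 10 ng library down to 8072 in the second 50 pg library. The 50 genes with the most counts took 19.3% and 20.5% of the counts at 10 ng and 23.4% to 24.0% in the low-input libraries. Of the markers of the labelled tissue, Pou5f1, T, Mixl1, Foxa2 and Cer1 had counts in every library, while Eomes, Hand1, Pax6, Lhx2 and Rax had too few to be tested. The markers Elf5, Tfap2c, Afp, Apoa1, Hba-x and Col1a1, which stand for trophoblast, visceral endoderm, blood and fibroblasts, had too few counts to be tested. Of 15 trophoblast markers 7 were tested. The summed level of all 15 was 689 to 691.5 CPM at 10 ng and 569 to 672 CPM at low input, where CPM are counts scaled to a common library total. In the comparison of 10 ng and low input described next, 1 of the 7 was lower (14.3%, against 17.3% of all genes) and 2 were higher (28.6%, against 18.4%). For 16 visceral endoderm markers, 7 of them tested, the sums over all 16 were 386 to 397 CPM and 393 to 437 CPM. Again 1 of the 7 was lower (Lamb1) and 2 were higher, among them Spink1 at 3.23-fold, so the shares were also 14.3% and 28.6%. All 10 fibroblast markers summed to 608 to 634.5 CPM at 10 ng and 371 to 455 CPM at low input. Of these 10 genes 5 were tested and none was called. For blood, 1 of 12 markers, Gata1, was tested and not called. Whether these markers have a part in the results was not tested.

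Tln1 and Dicer1, the genes this comparison was picked for with earlier results of these data known, were both far higher at low input. Levels here are CPM after TMM scaling, which scales the libraries on the assumption that most genes do not change. Tln1 stood at 11.96 and 11.1 CPM at 10 ng, at 370 and 499 CPM at 100 pg, and at 292 and 255 CPM at 50 pg. The 4 low-input libraries were all far above both 10 ng libraries, with a log2 change of 4.91 ± 0.20 (SE), or 30.2-fold (edgeR quasi-likelihood test, Benjamini-Hochberg adjusted p = 3.37e-07). Dicer1 had 190 and 189 CPM at 10 ng, 1850 and 2483 CPM at 100 pg, and 1964 and 1490 CPM at 50 pg. Its groups were also wide apart, with a log2 change of 3.35 ± 0.18, or 10.2-fold (edgeR adjusted p = 6.92e-07). Both genes are long, at 8393 bases for Tln1 and 9851 bases for Dicer1.

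Egfr, the epidermal growth factor receptor, was the largest rise under the rule for named genes after Tln1. It had 16.8 and 30.1 CPM at 10 ng, 274 and 204 CPM at 100 pg, and 350 and 439 CPM at 50 pg, a log2 change of 3.65 ± 0.25. The 1 ng libraries, which were not part of the test, had 474 and 449 plain CPM (of the library total, without TMM) for Egfr, above the low-input libraries. For Tln1 the same libraries had 47.5 and 37.4, and for Dicer1 496 and 411 plain CPM, between the 10 ng and the low-input values. For Egfr the 1 ng libraries were thus already as high as the low-input ones, whereas for Tln1 and Dicer1 they were not. These differences from 1 ng were not tested.

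**Figure D1:**
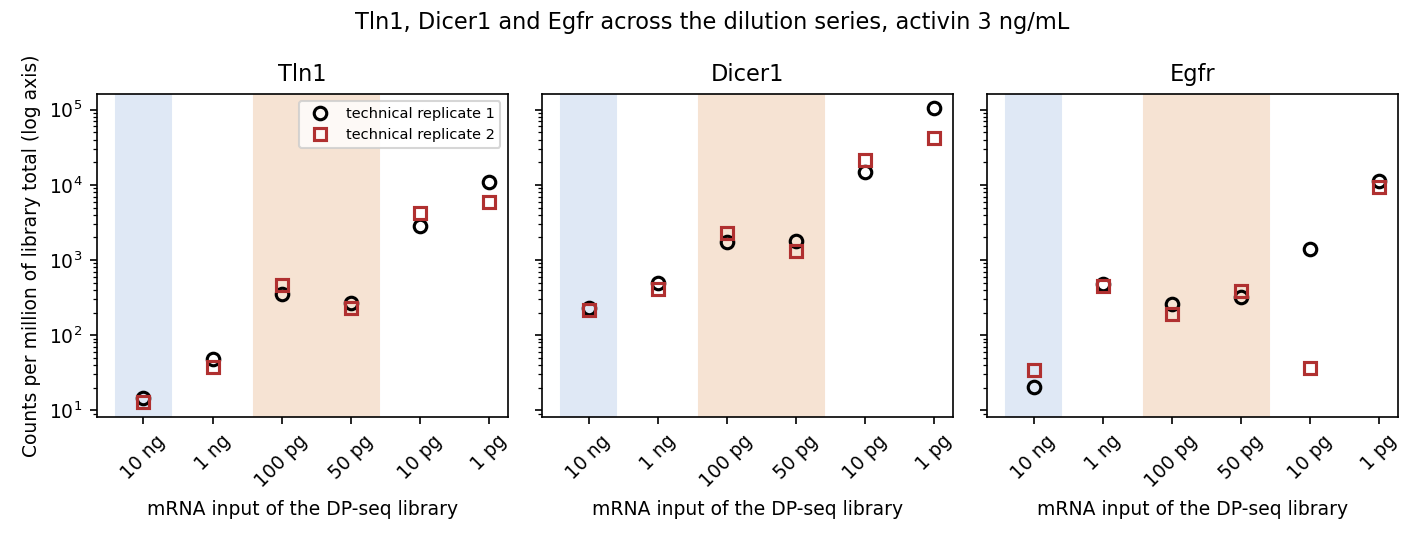
Plain CPM (log axis) for Tln1, Dicer1 and Egfr in each DP-seq library by mRNA input, with 1 point for each technical replicate. The blue band marks 10 ng and the orange band 100 pg and 50 pg, the groups compared. Tln1 and Dicer1 lie higher in the orange band than in the blue band, and Egfr is already high at 1 ng.

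Across the transcriptome, 3642 of 10197 genes tested changed between 10 ng and the low-input libraries, which is 35.7%. Of these, 1762 (17.3%) were lower and 1880 (18.4%) were higher at low input, and 2149 (21.1%) changed by at least 2-fold, with 1108 (10.9%) lower and 1041 (10.2%) higher. The ranges of the 4 low-input libraries and the 2 libraries at 10 ng did not overlap for 5332 genes (52.3%), 2802 of them lower (27.5%) and 2530 higher (24.8%). The count rests on both 10 ng libraries: without the first it was 2341, with 1014 lower and 1327 higher, and without the second 2062, with 808 lower and 1254 higher. It also rests on how the spread is estimated and scaled. With the 12 libraries of the dilution series in the fit, 10 pg and 1 pg among them, 235 of 10817 genes passed, 70 lower and 165 higher. With 8 libraries, the 1 ng pair added but not 10 pg and 1 pg, 4376 of 10600 genes passed, 2231 lower and 2145 higher. With library totals in place of TMM the median of all genes moved by -0.36 on the log2 scale, to -0.413. Of 10197 genes 2961 were then lower against 1133 higher. Counts for gene lists under the fit of 12 libraries and under library totals are to be read beside these numbers. Calls of single genes said below to be lost are given without the fit of 12 libraries, in which 58 named genes lost theirs.

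The other large rises had varied functions. Yy1, a zinc finger transcription factor, had 31.9 and 19.7 CPM at 10 ng and 176 to 264 CPM at low input, a log2 change of 3.14 ± 0.21. Cenpa, the centromeric histone H3 variant, had 20.5 and 16.6 CPM at 10 ng and 142 to 165 CPM at low input, a log2 change of 3.06 ± 0.18. Sdhd, a membrane subunit of succinate dehydrogenase, had 375 and 431 CPM at 10 ng and 2653 to 3172 CPM at low input, a log2 change of 2.80 ± 0.14. The groups of these 3 genes did not overlap. Rab9, a small GTPase of late endosomes, rose by 2.80 ± 0.21 and Xk, a membrane protein of red cells, by 2.82 ± 0.45 on the log2 scale. Chchd2, Tbca, Cox6c and H3f3a rose by 2.97 ± 0.19, 2.97 ± 0.21, 2.91 ± 0.30 and 2.91 ± 0.35. Those 4 genes have or may have near-identical copies in the mouse genome that could share reads, so their values are uncertain. The 2 libraries at 10 ng also differed for H3f3a, at 177 and 58.5 CPM.

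The 12 largest falls were all of genes with at most 42.1 CPM at 10 ng. Grb10, an adaptor that restrains insulin and growth factor receptors, had 19.9 and 21.9 CPM at 10 ng, 2.46 and 1.604 CPM at 100 pg, and 1.51 and 0.167 CPM at 50 pg. Its log2 change was -4.00 ± 0.50, or 16.1-fold lower (edgeR adjusted p = 9.45e-05). Vps37c, a subunit of the ESCRT-I sorting complex, had 31.1 and 42.1 CPM at 10 ng and 2.00 to 4.45 CPM at low input, a log2 change of -3.42 ± 0.31. Abl1, a non-receptor tyrosine kinase, had 10.9 and 12.4 CPM at 10 ng and 0.757 to 1.501 CPM at low input, a change of -3.28 ± 0.49. Celsr2, an atypical cadherin of planar cell polarity, fell by 3.58 ± 0.50. In all 4 genes every low-input library lay below both 10 ng libraries.

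Strn, the calmodulin-binding scaffold striatin, had 7.18 and 8.49 CPM at 10 ng, 1.06 and 3.92 CPM at 100 pg, and 0 in both 50 pg libraries (edgeR adjusted p = 0.00137). Its call was lost with the 4 low-input libraries taken as 1 group. No fold is given for it because 1 of the low-input groups is at 0. Fam234a passed the test in the same direction, with 6.91 and 6.22 CPM at 10 ng and at most 1.25 CPM at low input. B4galnt4, Wdr73, Mad1l1, Galnt16 and Med22 were also among the 12 largest falls. The calls of those 5 genes were lost without the second 10 ng library, and that of Med22 also without the first.

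Genes with very many counts moved too, by smaller folds. Cldn6, a claudin of epithelial tight junctions, had 3104 and 3863 CPM at 10 ng, 633 and 703 CPM at 100 pg, and 1074 and 1138 CPM at 50 pg, 4.05-fold lower. Nono, an RNA-binding protein of paraspeckles, had 3234 and 4088 CPM at 10 ng and 943 to 1413 CPM at low input, 3.09-fold lower. Hsp90ab1, a cytosolic chaperone, was 2.34-fold lower, and Hspa8 and Tubb5 were 1.35-fold and 1.37-fold lower. Npm1, the nucleolar protein nucleophosmin, had 10743 and 9405 CPM at 10 ng and 34271 to 36913 CPM at low input, 3.56-fold higher. Prdx2 was 3.91-fold, H3f3b 3.73-fold, Gapdh 2.57-fold and Hnrnph1 1.42-fold higher. Most of these genes, Cldn6 excepted, have processed pseudogenes or close paralogues, so the share of reads counted to each is uncertain. The call of Tubb5 was lost without the second 10 ng library or the second 100 pg library, and that of Hnrnph1 without the first 10 ng library, without the second 100 pg library and under library totals.

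Detection was asked next, on the libraries thinned to equal depth. Of 8550 genes with at least 10 thinned counts in both 10 ng libraries, 6984 (81.7%) had at least 10 in all 4 low-input libraries. Counts of 0 were seen in no low-input library for 8326 of the 8550 genes, in 1 library for 178, in 2 for 36, in 3 for 8 and in all 4 for 2 genes. The 2 genes lost by this rule were Ppp1r18, a phosphatase-1 partner that binds actin, and Aff2, a nuclear protein gene at a fragile site of the X chromosome. Ppp1r18 had 17 and 75 deposited counts at 10 ng, 0 and 2 at 100 pg, and 0 and 0 at 50 pg. Aff2 had 18 and 33 deposited counts at 10 ng, 0 and 0 at 100 pg, and 1 and 2 at 50 pg. At full depth neither gene was at 0 in all 4 libraries, while 3 other genes met the rule on the deposited counts. A second random thinning gave 0 genes lost. Leaving out each library in turn gave 3 to 6 genes lost, with 6 without the second 10 ng library. A minimum of 5 counts gave 20 genes and a minimum of 20 counts gave 0.

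No gene was gained in the strict sense of 0 thinned counts in both 10 ng libraries and at least 10 in all 4 low-input libraries, a count that was 1 without the second 10 ng library. Crossing the minimum of 10 counts was more frequent downwards: 262 genes were above the minimum in both 10 ng libraries and below it in all 4 low-input libraries, and 30 genes crossed upwards. Thinning sets total counts equal and not the TMM scale, whose factors were 1.21 and 1.16 at 10 ng and 0.893 to 0.940 at low input. On library totals 2961 genes were called lower and 1133 higher, and the part of the scaling in the crossings was not tested. Of the 262 genes 124 passed the test as lower, beside 17.3% of all genes tested. Of the 30 genes 19 passed it as higher, beside 18.4% of all genes tested. Both sets were picked by their counts in the same 6 libraries, so these numbers are no separate support. The following genes were chosen after their values were seen. Cdc42bpb, a kinase that acts with Cdc42 on myosin, went from 48 and 65 thinned counts to 9, 9, 1 and 5. Mical3, a monooxygenase that acts on actin, went from 49 and 51 to 2, 4, 1 and 9, and Mknk2, a kinase of the translation factor eIF4E, from 40 and 50 to 4, 3, 5 and 4. In the other direction Coa6, an assembly factor of cytochrome c oxidase, went from 7 and 9 thinned counts to 55, 50, 28 and 48. Prss2, a pancreatic trypsinogen, went from 0 and 2 to 25, 20, 27 and 25, and it belongs to a family of close copies. The median transcript length was 3555 bases for the 262 genes that crossed downwards and 1806.5 bases for the 30 that crossed upwards.

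Whether a gene was kept followed its count at 10 ng. Of 1179 genes whose lower 10 ng value was 10 to 19 thinned counts, 27.7% had at least 10 in all 4 low-input libraries and 14.3% were at 0 in at least 1. For 1844 genes at 20 to 49 counts the shares were 67.5% and 2.77%, and for 1513 genes at 50 to 99 counts they were 93.1% and 0.264%. From 100 counts to under 1000 99.7% of 3451 genes were kept, and from 1000 counts all 563 genes were. Genes of the first class lie next to the minimum itself, so their share does not show absence.

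**Figure D2:**
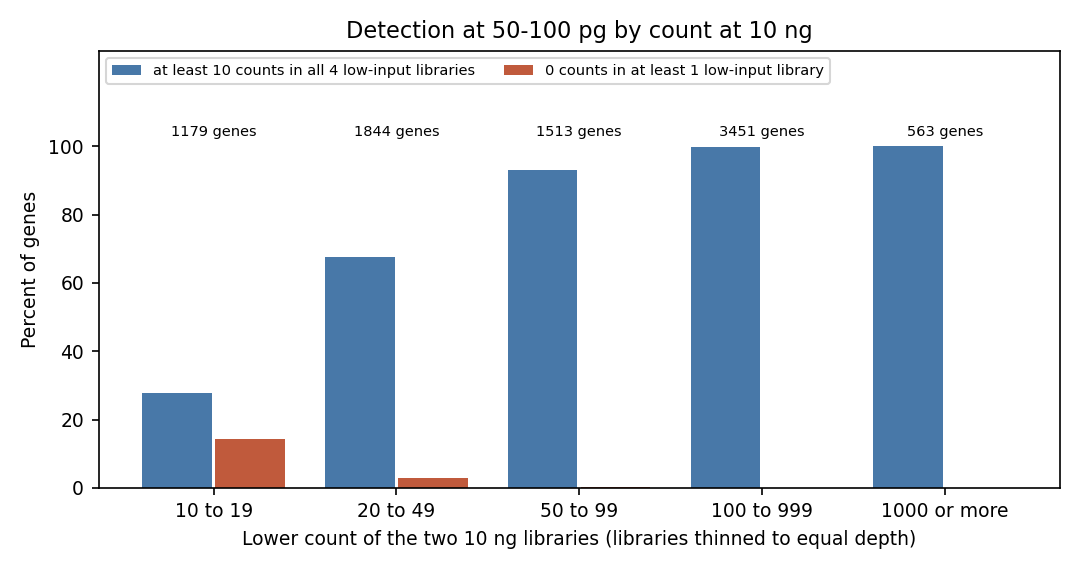
Percent of genes with at least 10 thinned counts in all 4 low-input libraries (blue) and percent at 0 in at least 1 of them (red), by the lower thinned count of the 2 libraries at 10 ng. The blue bars climb from 27.7% at 10 to 19 counts to 99.7% from 100 to under 1000 counts, and the red bars shrink from 14.3%.

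The spread between technical replicates grew as input fell, for genes of low count. For genes with a mean of 10 to 30 thinned counts, the SD of the log2 ratio between the replicates was 0.607 at 10 ng, 1.02 at 100 pg and 1.39 at 50 pg. At 30 to 100 counts it was 0.377, 0.583 and 0.757. For genes of 300 to 1000 counts the order was gone, with 0.284 at 10 ng, 0.243 at 100 pg and 0.267 at 50 pg, and above 1000 counts the 10 ng pair had the widest spread, 0.279 against 0.200 and 0.190. A difference of more than 2-fold between replicates was seen in 9.59%, 27.4% and 37.7% of genes of 10 to 30 counts at 10 ng, 100 pg and 50 pg.

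**Figure D3:**
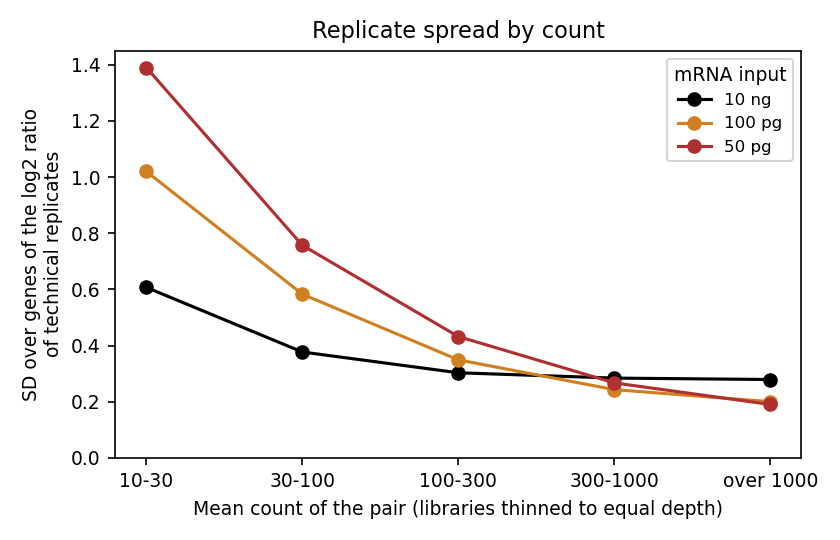
SD over genes of the log2 ratio between technical replicates, by the mean thinned count of the pair, for 10 ng, 100 pg and 50 pg. The curves are apart at low counts (0.607, 1.02 and 1.39 at 10 to 30 counts) and meet at 300 to 1000 counts.

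The called genes differed in transcript length, taken from reference transcripts for 10033 of the genes tested. The median length was 3941.5 bases for genes that were lower, 2247 bases for genes that were higher and 3061 bases for all genes tested. In the shortest quintile of genes, up to 1764 bases, 4.38% were lower and 34.9% were higher. In the longest quintile, from 5061 bases, 26.6% were lower and 10.7% were higher. The 3 quintiles between went in order, with 12.8%, 20.4% and 22.6% lower and 18.7%, 15.4% and 13.1% higher. Among genes of 10 to 100 CPM at 10 ng the shortest quintile had 7.02% lower and 41.6% higher and the longest 33.3% lower and 12.1% higher. Across genes, which are not independent replicates, the Spearman correlation of the log2 change with length was -0.316 and with GC content -0.217. Tln1, Dicer1 and Egfr lie in the longest quintile and went the other way from most called genes there.

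**Figure D4:**
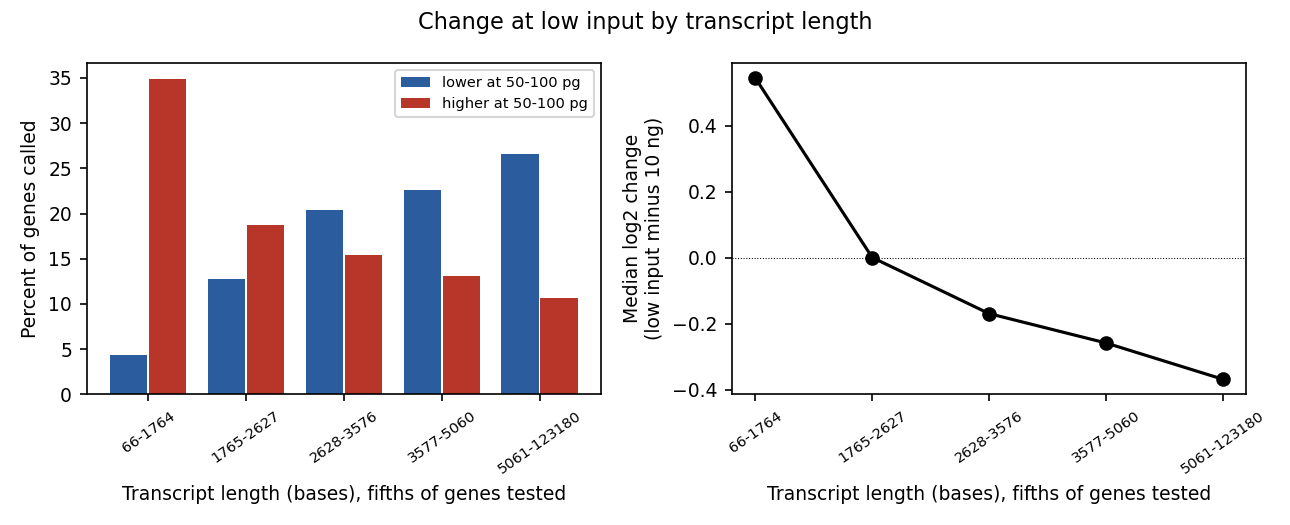
Left, percent of genes lower (blue) and higher (red) at low input in each quintile of transcript length. Right, the median log2 change of each quintile. The share lower climbs from 4.38% to 26.6% and the share higher drops from 34.9% to 10.7% from the shortest to the longest quintile.

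Gene groups of short and of long transcripts are given next. Of 41 tested oxidative phosphorylation genes, with a median length of 645 bases, 25 rose (61%, against 18.4% of all genes) and 1 fell (2.44%, against 17.3%), and the list's median log2 change was 0.914 against -0.053 for all genes. With 12 libraries in the fit 5 rose and 0 fell. Uqcrq of complex III had 71.0 and 91.7 CPM at 10 ng and 408 to 533 CPM at low input. Ndufa4, chosen after its values were seen, had 193 and 212 CPM at 10 ng and 798 to 896 CPM at low input. Atp5b, the β subunit of ATP synthase, was the 1 member that fell, by 0.77 ± 0.12. Of 76 cytoplasmic ribosomal protein genes tested, 46 rose (60.5%, against 18.4% of all genes) and 0 fell, with a median of 0.66 and a median length of 843 bases. With 12 libraries in the fit 10 rose. Under library totals 31 of those 76 genes rose and 7 fell, and 2 fell without the first 10 ng library, without the first 100 pg library and with upper quartile scaling. Ribosomal protein genes and many of these short subunits have processed copies, so their counts are uncertain.

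Chromatin regulators, with a median length of 6405 bases, went mostly down: 15 of 30 tested fell (50%, against 17.3% of all genes) and 3 rose (10%, against 18.4%), with a median of -0.528. Library totals gave 20 lower and 1 higher, and the fit of 12 libraries 0 and 0. Over all genes library totals gave 2961 lower and 1133 higher of 10197, and the fit of 12 libraries 70 and 165 of 10817. Dnmt1, the maintenance DNA methyltransferase, had 202 and 201 CPM at 10 ng, 85.9 and 95.3 CPM at 100 pg, and 84.4 and 61.7 CPM at 50 pg. Kdm6a, a demethylase of histone H3 lysine 27, had 38.02 and 45.5 CPM at 10 ng and 7.005 to 18.1 CPM at low input, 3.48-fold lower. Ep300, a histone acetyltransferase, and its paralogue Crebbp, both chosen after their values were seen, moved apart: Ep300 rose by 1.10 ± 0.15 and Crebbp fell by 1.01 ± 0.15. Of 32 cell division genes tested 15 fell (46.9%, against 17.3% of all genes) and 6 rose (18.8%, near the 18.4% of all genes). There were 9 lower without the first 10 ng library, 19 lower and 3 higher under library totals, and 0 lower and 2 higher with 12 libraries in the fit. Ccna2, cyclin A2, rose 3.44-fold, from 612 and 570 CPM to 1953 to 2124 CPM, and Pcna, the replication clamp, rose 3.601-fold, while the 2 libraries at 10 ng differed for Pcna at 764 and 444 CPM. Of 27 translation factors 12 rose (44.4%, against 18.4% of all genes) and 7 fell (25.9%, against 17.3%), with 8 and 11 under library totals. Of 20 glycolytic and housekeeping genes 3 rose (15%) and 4 fell (20%), near the shares of all genes, with 2 and 9 under library totals. With 12 libraries in the fit 2 translation factors rose and 1 fell, and 1 of the glycolytic and housekeeping genes rose and 1 fell. Whether length itself has a part in these group differences was not tested.

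The lists that hold Tln1 and Dicer1 went both ways. Of 24 tested genes of focal adhesions and actin linkage 10 fell (41.7%, against 17.3% of all genes) and 8 rose (33.3%, against 18.4%), with a median of -0.399. Without the second 10 ng library 4 fell, 4 rose without the first and 5 without the second 100 pg library, library totals gave 12 lower and 3 higher, and the fit of 12 libraries 0 and 2. Talin's paralogue Tln2 had 33.2 and 40.0 CPM at 10 ng and 15.1 to 17.8 CPM at low input, a change of -1.14 ± 0.23. Actn4, the actin crosslinker α-actinin 4, fell 3.93-fold, and Itgb1, the integrin β1 chain that talin binds, fell by 0.92 ± 0.13. Ptk2, focal adhesion kinase, rose by 1.24 ± 0.21. Of 15 tested genes of the microRNA machinery 6 rose (40%, against 18.4% of all genes) and 4 fell (26.7%, against 17.3%), with a median of 0.20. Under library totals the median was -0.162, beside -0.413 for all genes, with 3 higher and 5 lower. Over all 10197 genes that setting gave 1133 higher and 2961 lower. With 12 libraries in the fit 1 rose and 0 fell. Prkra and Tarbp2, the double-stranded RNA-binding partners of Dicer, rose by 1.55 ± 0.30 and 0.93 ± 0.26. Xpo5, which exports precursors from the nucleus, fell by 1.35 ± 0.16, and Ago2, the slicing Argonaute, by 0.91 ± 0.18. Tln2, Itgb1, Ptk2, Tarbp2, Xpo5 and Ago2 were chosen after their values were seen.

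Of 177 lineage regulators in 6 lists, 105 had enough counts to be tested, 22 were lower (21% against 17.3% of all genes) and 27 were higher (25.7% against 18.4%). The other 56 did not pass the test. By the 2-fold criterion 14 were lower and 19 higher, beside 10.9% and 10.2% of all genes. The groups did not overlap for 32 lower and 35 higher genes, beside 27.5% and 24.8% of all genes. Their median log2 change was 0.00257 beside -0.053 for all genes, and under library totals -0.354 beside -0.413 for all genes. Without the first 10 ng library 12 were lower and 19 higher, and without the second 11 and 15. Library totals gave 30 lower and 17 higher, beside 2961 and 1133 of all 10197 genes. The fit of 12 libraries gave 3 lower and 3 higher of 114, beside 70 and 165 of 10817. Those were 1 endoderm gene and 2 pluripotency genes lower, and 1 neuroectoderm gene and 2 pluripotency genes higher, with none called in the streak, mesoderm and Activin/Nodal lists.

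Most of the lineage regulators that could be detected were kept. Of 84 with at least 10 thinned counts in both 10 ng libraries, 66 (78.6%, against 81.7% of all genes) had at least 10 in all 4 low-input libraries. None was at 0 in all 4 libraries and none crossed the minimum upwards. Pcsk5, Sall4 and Wnt8a were among those at 0 in at least 1 low-input library, and Krt19 and Zic5 among those under 10 in all 4. Of the 177, 72 were too low to be tested, among them Eomes, Hand1, Pax6, Lhx2 and Rax, and 19 of the 177 had no count in any of the 6 libraries.

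**Figure D5:**
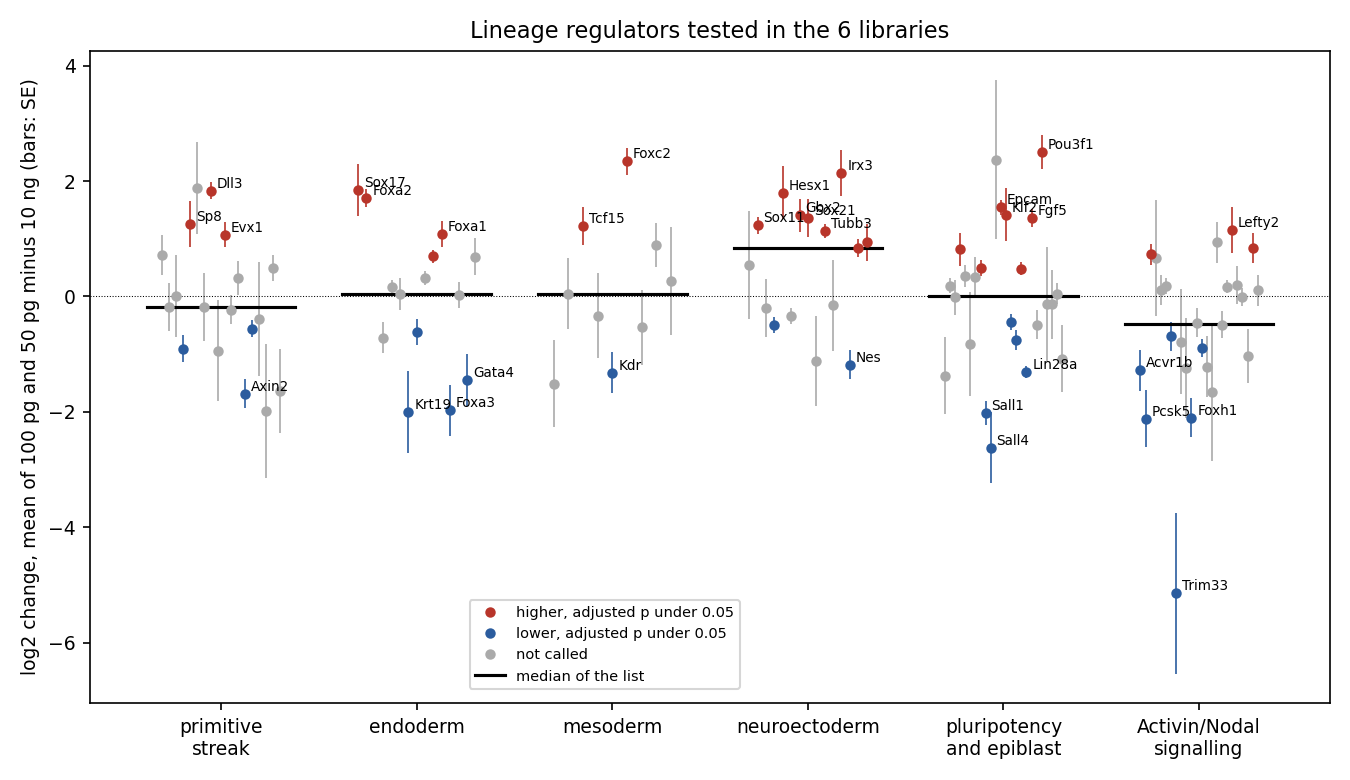
Log2 change (mean of 100 pg and 50 pg minus 10 ng) with its SE for each tested lineage regulator, by list, in red where higher, blue where lower and grey where not called. Black lines mark list medians, and called genes changed by at least 2-fold are named. An endoderm gene that enters the median is not drawn. The point of Trim33 rests on few counts at low input and its place on the axis is not a measured fold. Neuroectoderm has most of its called points above 0, and Activin/Nodal signalling most of them below.

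Of 18 primitive streak regulators tested 3 were higher and 3 lower, 16.7% each way and so about the shares of all genes (18.4% and 17.3%). Without the second 10 ng library 1 was lower, and without the second 50 pg library 5 were higher. T (Brachyury), the T-box factor of the streak, had 744 and 1030 CPM at 10 ng, 653 and 500 CPM at 100 pg, and 617 and 644 CPM at 50 pg. It was 1.47-fold lower, with both 10 ng libraries above the other 4, and its call was lost without the second 10 ng or the second 100 pg library. Axin2, a Wnt feedback target, had 48.7 and 41 CPM at 10 ng and 9.68 to 17.0 CPM at low input, 3.21-fold lower. Dll3, a Notch ligand of the presomitic mesoderm, had 76.8 and 71.8 CPM at 10 ng and 237 to 285 CPM at low input, 3.57-fold higher. Evx1, a posterior homeobox factor, rose by 1.07 ± 0.22. The homeobox gene Mixl1 had 41.5 and 36.5 CPM at 10 ng and 25.02 to 45.4 CPM at low input, ranges that overlapped. Wnt8a had 23 and 27 thinned counts at 10 ng and 17, 7, 7 and 0 at low input, and did not pass the test.

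Endoderm regulators moved in both directions, and the 3 FoxA pioneer factors did not move together. Foxa2 had 46.8 and 56.6 CPM at 10 ng, 191 and 208 CPM at 100 pg, and 139 and 151 CPM at 50 pg, 3.26-fold higher. Foxa1 rose by 1.08 ± 0.23, whereas Foxa3 fell from 36.2 and 52.3 CPM to 21.6, 7.13, 13.6 and 4.34 CPM, a log2 change of -1.97 ± 0.44. Sox17, the SRY-box factor of definitive endoderm, had 3.72 and 3.02 CPM at 10 ng and 8.55 to 17.8 CPM at low input, 3.597-fold higher. Gata4 and Krt19 were lower by 1.44 ± 0.45 and 2.00 ± 0.71. In all, 4 of 15 tested rose (26.7%, against 18.4% of all genes) and 5 fell (33.3%, against 17.3%), and 2 fell without the first or the second 10 ng library or the second 100 pg library. The call of Sox17 was lost without the second 10 ng library, and that of Gata4 without either 10 ng library or the second 100 pg library. Krt19 passed narrowly (edgeR adjusted p = 0.0446), with adjusted p from 0.00253 to 0.413 over the alternatives and 0.0634 with a replicate block. Trh, a thyrotropin-releasing hormone gene of this list, went from 1380 and 1219 CPM to 1980 to 2187 CPM, and the Nodal antagonist Cer1 stayed uncalled at 257 and 297 CPM against 276 to 358 CPM.

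In mesoderm, 2 of 9 tested genes were higher (22.2%) and 1 was lower (11.1%) beside 18.4% and 17.3% of all genes. Foxc2, a forkhead factor of paraxial mesoderm, had 18.6 and 12.3 CPM at 10 ng and 66.7 to 83.0 CPM at low input, 5.07-fold higher. Its paralogue Foxc1 had 7.44 and 9.07 CPM against 8.91 to 20.4 CPM and did not pass the test. Kdr, the VEGF receptor of blood and vessel precursors, had 22.1 and 23.0 CPM at 10 ng and 5.70 to 12.9 CPM at low input. Tcf15, a somite factor, rose by 1.23 ± 0.33. The calls of Kdr and Tcf15 were lost without either 10 ng library, which left 1 gene higher and none lower, and library totals also left 1 higher.

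Neuroectoderm had the largest share of rises among the lineage lists, 8 of 15 tested (53.3%, against 18.4% of all genes) with 2 lower, and 4 higher without the second 10 ng library and 6 without the first. The list's median was 0.836 with TMM and 0.477 with library totals, beside -0.053 and -0.413 for all genes. It was -0.239 over the 29 members that DESeq2 fitted without the filter, beside -0.228 for all genes in DESeq2. Sox11, an SRY-box factor of neural progenitors, had 105 and 107 CPM at 10 ng and 221 to 299 CPM at low input. Tubb3, the neuronal β-tubulin, had 236 and 261 CPM at 10 ng, 633 and 698 CPM at 100 pg, and 455 and 445 CPM at 50 pg. Irx3, an Iroquois homeobox gene, had 4.79 and 2.94 CPM at 10 ng and 11.6 to 23.2 CPM at low input, 4.40-fold higher. Zic2 rose 1.79-fold, Gbx2 2.65-fold, Sox21 2.57-fold and Hesx1, a forebrain homeobox gene, 3.47-fold. Nes, the intermediate filament nestin, fell from 50.0 and 52.9 CPM to 16.5 to 29.0 CPM. The calls of Gbx2, Hesx1, Sox21 and of Cdh2, which was lower, were lost without the second 10 ng library, and those of Hesx1 and Cdh2 also without the first.

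Pluripotency and epiblast genes gave 7 higher (29.2%, against 18.4% of all genes) and 5 lower (20.8%, against 17.3%) of 24 tested. There were 4 higher without the second 10 ng library or without either 100 pg library, and 3 higher and 6 lower under library totals. Pou5f1 (Oct4) had 326 and 260 CPM at 10 ng and 190 to 226 CPM at low input, a change of -0.44 ± 0.14, while Nanog had 9.57 and 12.1 CPM at 10 ng and 15.5 to 23.2 CPM at low input, a change of 0.82 ± 0.28. Both were chosen after their values were seen. Sox2, the partner of Pou5f1, had 41.7 and 31.7 CPM against 20.8 to 33.7 CPM and did not pass the test. Lin28a, an RNA-binding protein that blocks let-7 maturation, had 1124 and 1191 CPM at 10 ng, 385 and 382 CPM at 100 pg, and 560 and 586 CPM at 50 pg, 2.47-fold lower. The Spalt zinc finger genes Sall1 and Sall4 fell 4.06-fold and 6.16-fold, and DESeq2 did not call Sall4. Sall4 had 79 and 61 thinned counts at 10 ng and 14, 18, 0 and 6 at low input. Pou3f1 (Oct6), of the primed epiblast, had 6.65 and 4.96 CPM at 10 ng and 28.0 to 37.9 CPM at low input, 5.67-fold higher, and Fgf5 rose 2.56-fold. The adhesion gene Epcam had 179 and 206 CPM at 10 ng and 517 to 594 CPM at low input.

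Activin/Nodal signalling had 6 of 24 tested genes lower (25%, against 17.3% of all genes) and 3 higher (12.5%, against 18.4%), with a median of -0.473 beside -0.053 for all genes. Without the first 10 ng library 3 were lower and 1 higher, and without the second 2 and 0. Leaving out the first 100 pg library gave 1 higher, leaving out the first 50 pg library 11 lower, and library totals 10 lower and 0 higher. Over all 10197 genes library totals gave 2961 lower and 1133 higher. Of the ligands, Nodal itself had 4.25 and 3.36 CPM at 10 ng and 0.167 to 3.03 CPM at low input and did not pass the test. Pcsk5, a proprotein convertase that can cut Nodal precursors, had 35 and 49 thinned counts at 10 ng and 24, 7, 0 and 4 at low input, and its call was lost without the second 10 ng library. The co-receptor Tdgf1 (Cripto) had 294 and 313 CPM against 320 to 369 CPM and was not called. Of the receptors, Acvr1b, the type I receptor ALK4, was 2.43-fold lower, and its call was lost without either 10 ng library.

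Of the transducers, Smad2 had 332 and 520 CPM at 10 ng and 221 to 253 CPM at low input, 1.86-fold lower, and Smad3 had 29.8 and 33.6 CPM at 10 ng without passing the test. Foxh1, the forkhead partner of Smad2, had 22.6 and 23.2 CPM at 10 ng and 4.16 to 8.34 CPM at low input, 4.29-fold lower. Trim33, a chromatin partner of Smad2 and Smad3, had 2.39 and 2.02 CPM at 10 ng and 2 counts in the 4 low-input libraries together. Its call was lost without the first 10 ng library, and no fold is given for it. The feedback antagonist Lefty2 had 3.19 and 6.39 CPM at 10 ng and 9.84 to 12.7 CPM at low input, and its call was lost without either 10 ng library, without either 100 pg library, under library totals and upper quartile scaling, and after thinning. Its paralogue Lefty1 had 7.18 and 8.99 CPM against 11.5 to 21.995 CPM and was not called.

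Between 50 pg and 100 pg no gene passed edgeR's test (0%), with a smallest adjusted p of 0.0533 and 1295 of 10197 genes at an unadjusted p under 0.05. DESeq2 called 144 genes, and edgeR without the filter on low counts called 206. Leaving out the first 50 pg library gave 164 genes and the second 42, and leaving out the first or the second 10 ng library gave 23 and 27. Against 10 ng alone, 1330 genes (13%) were lower and 1697 (16.6%) higher at 100 pg, and 1403 (13.8%) and 1716 (16.8%) at 50 pg. These comparisons share the 10 ng libraries. Lin28a and Cldn6 are examples whose 50 pg values lay above those at 100 pg in both replicates, and Zic2 and Tubb3 of the reverse, without a call.

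DP-seq libraries outside the comparison, both of activin 3 ng/mL, were a paired-end library from about 100 pg and a separate 50 pg library. The latter is labelled as prepared with the original primer set. Each was used as a single library, and whether they share mRNA with the dilution series is not given in the labels used here. In plain CPM against the 1 ng libraries, 54.7% of the genes called lower lay below both 1 ng libraries in both of these libraries, against 44.3% of all genes tested. Of the genes called higher 20.7% lay above both, against 10.6% of all genes. In the 50 pg library alone 79.1% of the genes called lower were below both 1 ng libraries (59.3% of all) and 52.3% of those called higher were above (33.2% of all). In the paired-end library 65.9% of the genes called lower were below (70.2% of all) and 30.1% of those called higher were above (24.1% of all). There 67.2% of the genes called higher were below both 1 ng libraries. Tln1 had 2.22 plain CPM in the paired-end library and 57.3 in the 50 pg library, and Dicer1 had 299.5 and 386. For Egfr they were 15.4 and 7.02. The levels that Tln1, Dicer1 and Egfr had in the 4 low-input libraries, 227 to 463, 1329 to 2303 and 189 to 392 plain CPM, were thus seen in neither of these libraries. For Dicer1 and Egfr both lay below both 1 ng libraries. For Tln1 the paired-end library lay below both 1 ng libraries (47.5 and 37.4 plain CPM) and the 50 pg library above both.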

How the data were processed

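Gene expression of 6 DP-seq libraries was analysed, with 12 others of the series for reference. The authors deposited 1 table a library of unique read counts per RefSeq transcript, per the file headers. Tables with values that are not whole were treated as estimated counts of the authors and rounded (9 values in the 18 tables used). How reads were aligned and counted, strand use and the build were not given in the sources used here. Coordinates are therefore left out, and reads of near-identical, overlapping or antisense genes cannot be told apart. Symbols of 26566 transcripts came from RefSeq tables (GRCm38.p6) for 25857 and GENCODE M21 for 150, and counts were summed to 21844 genes. Transcript length and GC content come from GENCODE M21 transcripts matched by RefSeq accession.

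The main test was edgeR's quasi-likelihood test (version 4.0.16, R 4.3.3; filterByExpr with minimum count 10 and total 15, TMM, robust quasi-likelihood fit of 3 group means). The contrast was the mean of 100 pg and 50 pg minus 10 ng, with Benjamini-Hochberg adjustment at 0.05 over all genes tested. Values after ± are standard errors of log2 changes, and CPM are TMM-scaled unless said to be of library totals. Detection used counts thinned without replacement to 3110866. The scripts were tested on simulated data. Alternatives were other scalings, DESeq2 1.42.0, no filter, other library sets, thinning, a replicate block and leaving out each library; library totals and each low input alone were chosen after seeing the data. The members and gene lists were chosen with earlier results of these data known. Named genes were Tln1 and Dicer1, the 12 largest falls and rises and the 5 of each with most CPM (at least 50 counts, no overlap between groups), lineage regulators changed by at least 2-fold or among the 3 highest of their list, and the 2 largest changes of each other list. Some genes under this rule are not reported here. Other genes named are said to be chosen later or are list members given beside their paralogue or partner.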

Additional observations from a re-analysis of the deposited data

Results flagged for a closer look

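The 10 pg and 1 pg libraries of the dilution series were not part of the comparison, and Tln1 and Dicer1 had far more counts there than at 10 ng. Tln1 had 2862 and 4167 plain CPM (counts scaled to the library total) at 10 pg and 10910 and 5970 at 1 pg. Dicer1 had 14950 and 21250 plain CPM at 10 pg and 104800 and 42120 at 1 pg. In the same unit the 10 ng libraries had 14.5 and 12.8 for Tln1 and 229.8 and 217.7 for Dicer1, and replicates of the 2 lowest inputs differed by SDs of 2.28 and 3.72 of the log2 ratio. No group had 4 or more libraries, so single libraries that stand apart could not be looked for within a group.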

How the results depend on the processing

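Of 97 named genes, 87 passed the test. None changed direction in any setting where it had a result, and 28 of the 87 lost their call in none of those. A few named genes had no result under DESeq2, after thinning or without the second 10 ng library. With the 1 ng pair added to the fit, 8 libraries in all, 4376 genes changed, 2231 lower and 2145 higher, with 27 lineage regulators lower and 30 higher. With the 12 libraries of the dilution series in the fit, 235 genes changed, 70 lower and 165 higher, 228 by at least 2-fold, with 3 lineage regulators lower and 3 higher. In that fit 50 of the lower and 28 of the higher genes were longer than the median, 45 of the lower genes lay below and 60 of the higher above both 1 ng libraries in both other libraries, and 58 named genes lost their call. Among those 58 were Egfr, Cenpa, Vps37c, Cldn6, Axin2, Dll3, Foxa2, Foxc2, Sox11, Foxh1 and Smad2. Library totals gave 2961 lower and 1133 higher genes, 27.7% of calls higher against 51.6%, with 17 lineage regulators higher, and 1935 of the lower and 333 of the higher genes longer than the median (1195 and 621 with TMM). They put 1570 lower genes below both 1 ng libraries (963 with TMM). The median of all genes was -0.053 with TMM, -0.413 with library totals, -0.228 in DESeq2 and -0.282 with no filter, the last over 15541 genes as in DESeq2.

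Leaving out each library in turn gave 2062 to 4506 genes changed, 808 to 2350 lower, 1254 to 2156 higher and 1364 to 2744 by at least 2-fold, 11 to 28 lineage regulators lower and 15 to 31 higher. It gave 554 to 1550 lower and 391 to 726 higher genes longer than the median, 432 to 1269 lower genes below and 285 to 426 higher genes above the 1 ng libraries, 3 to 6 genes lost, 0 to 1 gained and 0 to 164 between 50 pg and 100 pg. That last comparison gave 4 genes with RLE size factors, 3 with upper quartile scaling, 144 with DESeq2, 206 with no filter, 24 with 8 libraries and 4 after thinning. Genes lost were 20 at a minimum of 5 counts, 0 at 20 counts, 3 on the deposited counts and 0 with a second seed. Same-numbered replicates did not deviate together (correlations 0.0125, -0.00423 and -0.0105), so the numbers do not pair the samples. With a replicate block 3591 genes changed, 1736 lower and 1855 higher, and 0 between 50 pg and 100 pg, and 1 named gene, Krt19, lost its call. The cause of these differences was not tested. Depth limits the first 10 ng library most, at 3110866 counts, and the precision of genes of 10 to 30 thinned counts was lower than that of genes of 30 to 100 counts at each input.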
